A study of Mus musculus with 12 samples.

Results

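The experiment described here is the change between the zygote and the 2-cell embryo when the mother's Pan2 gene had been deleted. It is read from 6 of the 12 Smart-seq2 libraries of a mouse embryo series, chosen by sample group: 3 libraries of 2-cell embryos (L2C in the labels) and 3 libraries of zygotes (PN3 in the labels), all from the maternal Pan2 deletion (KO). Another 3 libraries of L2C and 3 of PN3 from wild-type embryos (WT) served to ask how the KO change differed. The series design names zygotes and 2-cells, whereas the extraction text speaks of oocytes and 2-cells, so PN3 is read here as the zygote stage on the strength of the design. The labels give the tissue as embryos and name no strain, age, Cre driver, deleted exon, father's genotype or number of embryos per library. No treatment was named for any group. They do not state that replicates came from separate animals or pools, so the p-values rest on library-to-library spread alone, which may be technical.

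Pan2 is the catalytic subunit of the PAN2-PAN3 complex, which trims long poly(A) tails before the CCR4-NOT complex removes the rest. A growing mouse oocyte stores large amounts of mRNA that is silenced by short tails, reads it out by cytoplasmic polyadenylation during maturation, and clears it in waves before and after fertilization. The embryo's own genome is transcribed first weakly in the zygote and then strongly in the 2-cell embryo, so between these stages some RNAs disappear while others appear. Oligo(dT) primed the libraries, so they count tailed RNA, and an RNA that kept its body but lost its tail cannot be told apart from one that was degraded. Levels are given as CPM, counts scaled to library size by edgeR's TMM method, relative to the other RNAs of a library and with no spike-in named in the sources used here, and RNA was diluted to a common concentration before library construction, per the labels. Fewer cells of a type and less RNA per cell cannot be told apart in such bulk samples.

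Total counts ran from 14453592 to 18619553 in the KO L2C libraries and from 22929561 to 26431565 in the KO PN3 libraries, and from 16866135 to 28624766 in the WT libraries. A count of 3 was worth between 0.109 and 0.171 CPM in the 12 libraries. Genes annotated as rRNA, mitochondrial rRNA aside, together took 12.7 to 34.0% of counts in KO L2C libraries and 4.76 to 32.2% in KO PN3 libraries. KO L2C replicate 3 and KO PN3 replicate 2 were the rRNA-rich ones, as were the same numbers in WT. KO L2C replicates 1 and 2 lay much closer to each other (chi-square per degree of freedom 3.59) than to replicate 3 (175 and 178), and WT L2C replicates 1 and 2 were alike in the same way (3.33). They differed by more than sampling noise and were kept as separate libraries, and results that depend on this choice are given with these pairs summed as well. All 14 tested markers of the oocyte and preimplantation embryo had counts in every KO group, with summed levels between 3568 and 7204 CPM in KO L2C and between 14060 and 24460 CPM in KO PN3.

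The check of the deletion was Pan2 itself. Pan2 (chromosome 10, 128303335 to 128321358, mm10) had 15.3, 17.8 and 34.5 CPM in the KO L2C libraries and 1.58, 6.67 and 4.52 CPM in the KO PN3 libraries, against 62.2, 60.1 and 69.1 CPM in WT L2C and 189, 173 and 159.6 CPM in WT PN3. Every KO library lay below every WT library, and within KO every L2C library lay above every PN3 library. The rise in KO was 2.41 on the log2 scale (SE 0.43, edgeR adjusted p = 0.000476), and it stayed past the threshold under each of the 25 alternatives, with values between 1.97 and 2.91. In WT the stage change was -1.44 (edgeR adjusted p = 0.00798). Counts per gene do not separate the deleted part from the rest of the transcript, or the maternal from the paternal copy.

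The first question was how many RNAs changed between the stages without maternal Pan2. Of 21160 genes tested by edgeR's quasi-likelihood test at an adjusted p under 0.05, 7083 were higher at L2C in KO (33.5% of genes) and 4251 were lower (20.1%). By 2-fold or more, 6733 genes rose (31.8%) and 3632 fell (17.2%), which are called KO-risen and KO-cleared genes here. The KO L2C and KO PN3 libraries did not overlap for 7789 genes that were higher and 4875 that were lower, 59.8% of all tested. The median log2 change over all genes was 0.41 in KO and 0.38 in WT. The split depended on scaling: with scaling to total counts, which moved the median KO change by 0.42, 8409 genes were higher and 2827 lower, while DESeq2's size factors (0.15), DESeq2 itself (0.15) and upper-quartile scaling (0.14) moved it less.

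The KO-cleared genes were a large part of the zygote's mRNA. The shares here leave out rRNA, all mitochondrial genes and Lars2, from the classes and from the total. On this basis KO-cleared genes held 19.6, 19.7 and 18.1% of the counts in the KO L2C libraries and 54.2, 50.03 and 54.8% in the KO PN3 libraries. KO-risen genes held 19.4, 19.5 and 20.3% in KO L2C and 2.24, 2.95 and 2.17% in KO PN3. The genes were chosen by these same KO values, so the shares describe the size of the turnover and test nothing. The WT libraries were not in the KO contrast, but they shared the filter, the scaling and the estimate of spread behind the KO calls. In them, KO-cleared genes held 16.2, 16.2 and 16.6% at L2C and 49.2 to 52.2% at PN3. The KO-risen genes held 31.3 to 33.1% of counts in WT L2C, above the 3 KO L2C libraries, and 2.43 to 2.94% in WT PN3.

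**Figure D1:**
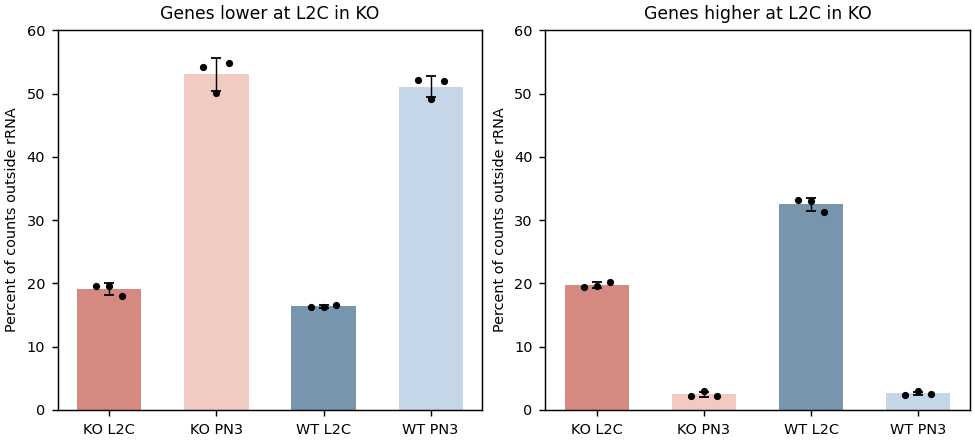
Percent of counts (y axis) that fell in genes lower at L2C by 2-fold or more in KO (left panel) and in genes higher by 2-fold or more (right panel), by group. Counts of rRNA, mitochondrial genes and Lars2 are left out, though the axis names rRNA only. Bars are means, whiskers are SD over the 3 libraries and points are libraries; in the right panel the KO L2C libraries sit between 19.4 and 20.3%, below the WT L2C libraries at 31.3 to 33.1%.

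Named genes were taken by rule as the 10 most abundant and the 10 most changed in each direction among called genes with a change of at least 4-fold and no overlap of libraries. The most abundant of the named genes that fell are given first. Bmp15, a growth factor that the oocyte secretes, had 2228, 2195 and 1153 CPM in KO L2C and 9440.4, 4556 and 10152 CPM in KO PN3. Bcl2l10, a BCL2 family protein of the oocyte, had 1564, 1663 and 711 CPM in KO L2C and 6824, 5425 and 6968 CPM in KO PN3. For both genes, every 2-cell library lay below every zygote library, as the rule required. Replicate 3 at L2C and replicate 2 at PN3 were the lowest of their groups. Bmp15 fell by 2.12 on the log2 scale (SE 0.36, edgeR adjusted p = 0.000319) and Bcl2l10 by 2.29 (SE 0.34, edgeR adjusted p = 0.000108), so 23.1% and 20.5% of the zygote level was left in KO.

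Oas1d, an oocyte-specific member of the oligoadenylate synthetase family, was cleared further. It had 143, 151 and 121 CPM in KO L2C and 4115, 2855 and 4315 CPM in KO PN3. The fall of 4.76 on the log2 scale (SE 0.28, edgeR adjusted p = 1.36e-07) left 3.68% in KO, beside 4.23% in WT. Elobl, which resembles the elongin B subunit of ubiquitin ligases, had 144, 153 and 84.9 CPM in KO L2C and 4363, 2041 and 4607 CPM in KO PN3, a fall of 4.85 (edgeR adjusted p = 9.53e-07) that left 3.47%. Neither gene's KO libraries overlapped between stages, which the naming rule required. The other named genes of high level were Skp1a, the adaptor of SCF ubiquitin ligases, with 16.7% left in KO, the F-box gene Fbxw24 with 8.72%, Bpgm, which encodes bisphosphoglycerate mutase, with 12.4%, Rfpl4 with 12.8%, D6Ertd527e with 11.8% and Nlrp4f with 23.9%. Oas1d, Fbxw24, Rfpl4 and Nlrp4f have close relatives in the genome, and the sources used here do not say how reads that fit several genes were counted, so their levels are uncertain.

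The largest falls reached a few percent of the zygote level. Rgs2, a regulator of G-protein signalling, had 48.9, 55.6 and 30.1 CPM in KO L2C and 2081, 1349.8 and 2106 CPM in KO PN3. The change was -5.36 (SE 0.44, edgeR adjusted p = 1.26e-06). Txnip, which binds and inhibits thioredoxin, had 27.7, 26.8 and 38.2 CPM in KO L2C and 788, 1211 and 794 CPM in KO PN3, a change of -4.91 (SE 0.26, edgeR adjusted p = 8.9e-08). Both RNAs were more than an order of magnitude lower in each 2-cell library than in any zygote library. Pms1, a DNA mismatch repair protein, had 3.88, 5.55 and 2.11 CPM in KO L2C and 180.2, 123 and 188 CPM in KO PN3, a change of -5.41 (edgeR adjusted p = 6.43e-07). Edn1, the precursor of endothelin 1, had 0.228, 0 and 0.401 CPM in KO L2C, 12 counts in all, and 19.2, 21.03 and 19.9 CPM in KO PN3, a change of -6.52 (edgeR adjusted p = 5.93e-06). Its WT zygote level was 8.21 CPM, and 7.92% was left in WT beside 1.09% in KO, with an interaction that was not called (edgeR adjusted p = 0.067). The remaining genes of this set, Dtwd1, Ccdc3, Mitd1, Gpatch1, Ccdc191 and Pabpn1l, kept between 2.59 and 3.46% in KO.

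**Figure D2:**
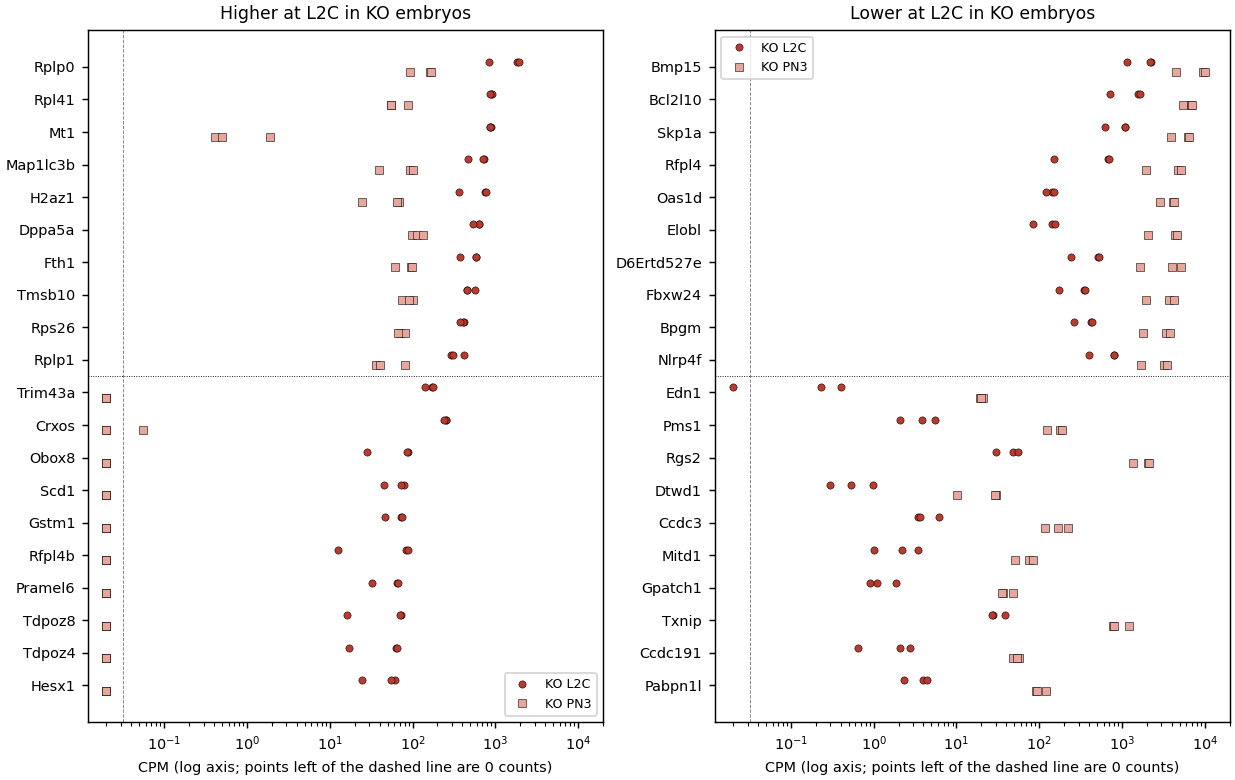
CPM on a log axis (x) of each KO library for the 20 named genes higher at L2C (left) and the 20 lower at L2C (right), with the most abundant genes above the dotted line and the largest folds below it. Dark circles are KO L2C and light squares KO PN3 libraries. No gene's groups overlap, which the choice of genes required. Of the lower 10 on the left, 9 had no count in any KO PN3 library.

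Sequence near the poly(A) site is shown for cleared genes because cytoplasmic polyadenylation elements (CPEs) close to the AATAAA signal are what readies a stored mRNA for tail lengthening. Of 49 named or listed genes that fell at least 4-fold in KO and have a 3′ UTR of 50 bases or more in GENCODE M21, 8 had a CPE of the form TTTTAT or TTTTAAT followed by AATAAA within 30 bases, in the last 100 bases of the transcript. Capitals mark the CPE and the AATAAA signal in these 30-base windows of mm10, written as RNA-sense DNA. The windows shown are those of Bcl2l10 (chr9:75351591-75351620, plus strand), Gdf9 (chr11:53437866-53437895, plus strand), Mitd1 (chr1:37878904-37878933, minus strand), Txnip (chr3:96561848-96561877, plus strand), D6Ertd527e (chr6:87112953-87112982, plus strand) and Bub1b (chr2:118641562-118641591, plus strand).
Bcl2l10: TTTTAATaacttcaaattcttAATAAAtgt
Gdf9: TTTTATgtgacggaagAATAAActgttgat
Mitd1: TTTTATaatgtatgaatttaacAATAAAtg
Txnip: TTTTAATgacaaaAATAAAtgttcttttct
D6Ertd527e: TTTTATtattgtttgtttatttcAATAAAg
Bub1b: gtaTTTTATAATAAAatagtttttgttaca
In Bcl2l10 14 bases separate the elements, in Gdf9 10, in Mitd1 16, in Txnip 6 and in D6Ertd527e 17, whereas in Bub1b they adjoin. A match is a description of the letters and not a functional site.

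Across all genes with at least 10 CPM in any group, such motifs were spread unevenly between the directions. A CPE lay in the last 100 bases in 24.7% of the 2707 KO-cleared genes with a 3′ UTR, in 15.4% of 2147 KO-risen genes, in 19.7% of 4273 genes in neither class, and in 20.2% of all 9127. A TATTTAT motif, the core of AU-rich elements, lay in the 3′ UTR of 30.8% of KO-cleared, 22.7% of KO-risen and 28.6% of all genes, at 0.31, 0.27 and 0.29 matches per 1000 bases. The Pumilio motif TGTANATA was in 27.0, 20.2 and 26.1% of these genes. AATAAA or ATTAAA in the last 40 bases was about as frequent in each class, at 76.9, 76.6 and 77.1%. Median 3′ UTR lengths were 1023, 788 and 1008 bases, and longer UTRs hold more matches by their length alone. Among genes cleared in WT, those that also fell by 2-fold in KO had a CPE in 24.2% and those that did not in 20.5%. These shares are descriptions over genes, which are not independent, and carry no test.

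Most members of the zona list fell in KO. Of 27 tested genes of the zona pellucida and of oocyte-secreted or oocyte-restricted factors, 23 fell and 3 rose in KO, with a median log2 change of -2.20 beside 0.41 over all genes, and 24 fell and 2 rose in WT (median -2.36). In KO 85.2% were lower and 11.1% higher, beside 20.1 and 33.5% of all genes. Gdf9, the partner of Bmp15 in oocyte signalling, had 184, 199.6 and 203 CPM in KO L2C and 1301, 1588 and 1380.2 CPM in KO PN3 (edgeR adjusted p = 5.18e-07). H1f8, the linker histone of the oocyte, had 124, 137 and 79.9 CPM in KO L2C and 3194, 1465 and 3563 CPM in KO PN3 (edgeR adjusted p = 1.03e-06). Plat, tissue plasminogen activator, fell by 2.96 on the log2 scale (edgeR adjusted p = 5.31e-07). Omt2a, Omt2b and Sohlh1 were the 3 that rose, a set named after its values were seen, and the Omt2 genes, with 7587 and 7865 CPM in KO L2C, were among the most abundant RNAs of the embryo.

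Members of the subcortical maternal complex and the Nlrp family, which are needed by the early embryo, fell in 14 of 19 cases and were not called in 5, with a median of -2.07 in KO and -2.77 in WT. In KO 73.7% were thus lower, beside 20.1% of all genes. Padi6, a peptidylarginine deiminase of the cytoplasmic lattices, had 113, 115 and 136 CPM in KO L2C and 2705, 1638 and 3015 CPM in KO PN3, a change of -4.34 (SE 0.26, edgeR adjusted p = 1.38e-07). Nlrp5 had 221, 224 and 160.1 CPM in KO L2C and 1771, 1281 and 1848 CPM in KO PN3 (log2 change -3.02), and Tle6, its partner in the complex, changed by -2.88. None of these 3 genes had overlapping groups. Without KO PN3 replicate 2 or with total count scaling, 1 gene of the list rose in KO. With a replicate block nested in the stage 2 rose. Nlrp4b changed by -4.33, with the same doubt about related copies.

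Of 27 genes linked to oocyte mRNA storage, 15 fell, 4 rose and 8 were not called in KO (55.6% lower, beside 20.1% of all genes; median -1.21) and 15 fell and 5 rose in WT (median -1.20). Cpeb1, the protein that binds CPEs, had 32.7, 28.8 and 38.7 CPM in KO L2C and 353, 397 and 428 CPM in KO PN3, a change of -3.55 (SE 0.22, edgeR adjusted p = 1.75e-07). Zar1, a translational regulator of the oocyte, had 45.96, 51.1 and 59.2 CPM in KO L2C and 725, 513 and 737 CPM in KO PN3 (log2 change -3.66, edgeR adjusted p = 5.93e-07). Rnf114, a ubiquitin ligase, and Patl2, an oocyte RNA-binding protein, changed by -3.24 and -3.03. All of these stood far apart between the stages in KO, and none had a called interaction.

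Of 28 genes of poly(A) binding and polyadenylation, 14 fell and 6 rose in KO (median -0.85), and 14 fell and 8 rose in WT. Oocyte and somatic forms moved in opposite directions. Pabpc1l, the embryonic poly(A)-binding protein of the cytoplasm, had 20.2, 19.8 and 20.1 CPM in KO L2C and 125, 159 and 137 CPM in KO PN3 (log2 change -2.81, edgeR adjusted p = 3.23e-07), whereas Pabpc1, its somatic counterpart and a gene named after its values were seen, had 79.3, 77.8 and 88.6 CPM in KO L2C and 4.46, 6.001 and 2.86 CPM in KO PN3 (log2 change 4.21, edgeR adjusted p = 2.56e-06). Pabpn1l, the oocyte form of the nuclear poly(A)-binding protein, had 3.94, 4.36 and 2.31 CPM in KO L2C and 91.2, 121 and 94.6 CPM in KO PN3 (log2 change -4.85), and Pabpn1, the somatic form, had 102, 93.8 and 38.9 CPM in KO L2C and 2.68, 3.31 and 2.33 CPM in KO PN3 (log2 change 4.82, edgeR adjusted p = 1.25e-06). In each pair the somatic form was above the oocyte form in every KO L2C library and below it in every KO PN3 library, on the CPM scale, which is not corrected for gene length.

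The deadenylation list, 32 genes of the PAN2-PAN3 and CCR4-NOT complexes and their recruiters, moved both ways. In KO 7 rose and 10 fell (21.9 and 31.2%, beside 33.5 and 20.1% of all genes), and in WT 10 rose and 12 fell. The KO median of -0.04 turned positive under 12 of the 25 alternatives. Cnot11, a CCR4-NOT subunit, had 9.14, 8.24 and 13.4 CPM in KO L2C and 110.2, 122 and 76.96 CPM in KO PN3 (log2 change -3.33, edgeR adjusted p = 2.12e-06). Cnot9 changed by -1.82 and Noct, a circadian member of the deadenylase family, by -2.22. Pnldc1, which trims piRNA precursors, rose, with 42.995, 44.98 and 41.4 CPM in KO L2C and 4.91, 2.58 and 4.52 CPM in KO PN3 (log2 change 3.42, edgeR adjusted p = 1.74e-06). Pan3, the partner of Pan2, and Btg4, the adaptor that recruits CCR4-NOT to maternal mRNA, were named after their values were seen. Pan3 had 501, 456 and 372 CPM in KO L2C and 295, 301 and 301 CPM in KO PN3 (log2 change 0.57, edgeR adjusted p = 0.0215), with no change called in WT (0.05), and an interaction that was not called either (edgeR adjusted p = 0.283). Btg4 had 2833, 2848 and 889.5 CPM in KO L2C and 7503, 2884 and 7927 CPM in KO PN3 (log2 change -1.48, edgeR adjusted p = 0.0211). The lowest Btg4 value of each stage was in the rRNA-rich library, and KO L2C replicates 1 and 2 lay just below KO PN3 replicate 2. Cnot6l, the catalytic CCR4-NOT subunit linked to maternal mRNA decay, had 246, 226 and 202 CPM in KO L2C and 462, 421 and 396 CPM in KO PN3, against 84.1, 87.5 and 96.3 CPM in WT L2C and 387, 515 and 461 CPM in WT PN3. Its fall was 0.92 in KO and 2.35 in WT, an interaction of 1.42 (edgeR adjusted p = 0.0109).

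Of 34 genes of decapping, uridylation and decay, 13 fell and 6 rose in KO (38.2 and 17.6%, beside 20.1 and 33.5% of all genes), and 12 fell and 9 rose in WT. The KO median was -0.28, positive only with total count scaling, under which the balance also turned. Dcp1a, the decapping activator, had 79.4, 84.4 and 67.4 CPM in KO L2C and 818, 653 and 973 CPM in KO PN3 (log2 change -3.40, edgeR adjusted p = 4.29e-07). Edc4, a scaffold of decapping, changed by -3.48. Tut4, a terminal uridylyltransferase that marks short-tailed mRNA, rose, with 21.8, 21.9 and 18.2 CPM in KO L2C and 0.527, 0.393 and 0.0952 CPM in KO PN3 (log2 change 5.89, edgeR adjusted p = 3.73e-06). Dcp1a and Tut4 moved in opposite directions with no overlap of libraries in either.

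Of 27 maternal reprogramming and chromatin factors 13 fell, 3 rose and 11 were not called in KO (48.1% lower, beside 20.1% of all genes), and 13 fell and 6 rose in WT. Dnmt1, the maintenance DNA methyltransferase, had 46.6, 45.7 and 53.99 CPM in KO L2C and 865, 709.6 and 908 CPM in KO PN3 (log2 change -4.08, edgeR adjusted p = 8.9e-08), and Dnmt3a changed by -2.70. The 3 that rose were Kdm5b, an H3K4 demethylase, Hdac1 and Ehmt2, of which the last was named after its values were seen. Hdac1 had 62.5, 68.5 and 36.3 CPM in KO L2C and 3.57, 4.09 and 2.33 CPM in KO PN3 (edgeR adjusted p = 3.44e-06). Of 32 genes of meiosis and the spindle checkpoint, 17 fell and 4 rose in KO (53.1 and 12.5%, beside 20.1 and 33.5% of all genes), and 15 fell and 7 rose in WT. Bub1b, a checkpoint protein, had 22.2, 23.1 and 30.4 CPM in KO L2C and 585, 496 and 591 CPM in KO PN3, against 27.3, 26.2 and 25.9 CPM in WT L2C and 176, 279.9 and 213 CPM in WT PN3. The L2C levels of the genotypes overlapped, and the KO zygotes stood above the WT zygotes in every library. Its change was -4.47 in KO and -3.07 in WT, an interaction of -1.39 (edgeR adjusted p = 0.0218) that was called in 14 of 23 alternatives and lost without any of KO L2C or WT L2C replicates 1 and 2, or KO PN3 or WT PN3 replicates 1 and 3.

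The 10 genes named for the largest rises in KO had no count or a single count in the KO zygotes. Trim43a had 174, 175 and 143 CPM in KO L2C and no count in the KO PN3 libraries, which is at least 3452-fold higher taking 3 counts summed over the 3 zygote libraries as the floor. Crxos, a homeobox gene, had 255, 252 and 239.9 CPM in KO L2C and a single count in KO PN3, a ratio of 15780.0 with a 95% counting interval between 2832 and 623400. By the same floor the rise was at least 1384-fold for the homeobox gene Obox8, 1370.0-fold for Scd1, the stearoyl-CoA desaturase, 1352-fold for the glutathione transferase Gstm1, 1258-fold for Rfpl4b and 1150.0-fold for Pramel6. It was at least 1092-fold for Tdpoz8, 1005-fold for Tdpoz4 and 975-fold for the homeobox gene Hesx1. Each of these 10 genes was called, as the rule required (edgeR adjusted p between 3.66e-08 and 3.4e-05). KO L2C replicate 3 was the lowest of its group in all of them. Trim43a, Obox8, Rfpl4b, Pramel6, Tdpoz4 and Tdpoz8 belong to families of close copies, so their single-gene levels are uncertain. Intervals and floors cover counting error only.

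Under the same 4-fold rule, the 10 most abundant risers included 4 ribosomal protein genes. Mt1, a metallothionein that binds zinc and copper, had 859, 896 and 855 CPM in KO L2C and 0.406, 0.505 and 1.904 CPM in KO PN3, a change of 9.85 (SE 0.66, edgeR adjusted p = 3.15e-07), against 2527, 2442 and 2098 CPM in WT L2C and 0.546, 2.22 and 1.44 CPM in WT PN3. Dppa5a, a marker of pluripotent cells, had 629.7, 633 and 533 CPM in KO L2C and 99.7, 115 and 134 CPM in KO PN3, a change of 2.36 (SE 0.19, edgeR adjusted p = 9.2e-07). H2az1, a histone variant, had 743, 777 and 362 CPM in KO L2C and 68.2, 24.3 and 65.02 CPM in KO PN3 (edgeR adjusted p = 3.14e-05). The stages stood apart in all 3 genes, which the rule required. Map1lc3b, an autophagosome protein, Fth1, the ferritin heavy chain, and Tmsb10, an actin-binding thymosin, rose by 3.03, 2.60 and 2.46 on the log2 scale. The ribosomal protein genes Rplp0, Rpl41, Rps26 and Rplp1 made up the rest, with rises between 2.46 and 3.75.

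Promoters are shown for 3 risers, one of the abundant genes and 2 that had no zygotic count in KO, since the letters around their starts differ in kind. Each runs from 250 bases before to 50 after the start (RefSeq, GRCm38.p6): Mt1 (chr8:94178839-94179138, plus strand), Trim43a (chr9:88580641-88580940, plus strand) and Hesx1 (chr14:27000112-27000411, plus strand). Capitals mark the TATA box letters TATAAA. They also mark GGATTA, the core bound by OTX-like homeodomains. The metal response core is in capitals too, either as TGCGCNC or in its other form TGCACNC, and each motif was searched on both strands.
Mt1: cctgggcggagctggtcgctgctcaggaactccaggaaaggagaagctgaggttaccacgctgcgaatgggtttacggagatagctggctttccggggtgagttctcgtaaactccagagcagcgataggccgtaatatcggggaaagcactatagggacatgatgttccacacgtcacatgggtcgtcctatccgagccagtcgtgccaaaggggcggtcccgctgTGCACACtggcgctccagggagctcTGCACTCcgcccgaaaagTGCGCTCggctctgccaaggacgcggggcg
Trim43a: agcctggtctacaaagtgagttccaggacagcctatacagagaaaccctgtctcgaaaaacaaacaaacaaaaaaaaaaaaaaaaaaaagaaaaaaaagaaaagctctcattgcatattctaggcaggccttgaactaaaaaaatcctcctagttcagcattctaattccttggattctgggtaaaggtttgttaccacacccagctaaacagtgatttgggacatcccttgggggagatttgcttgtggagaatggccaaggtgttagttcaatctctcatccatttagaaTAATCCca
Hesx1: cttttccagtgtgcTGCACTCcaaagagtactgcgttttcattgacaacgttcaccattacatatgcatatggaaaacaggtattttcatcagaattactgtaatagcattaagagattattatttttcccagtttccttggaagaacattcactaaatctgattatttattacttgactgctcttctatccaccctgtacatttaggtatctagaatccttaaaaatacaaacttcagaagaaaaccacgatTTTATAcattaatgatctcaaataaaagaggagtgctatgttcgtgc
The Mt1 promoter held 3 metal response cores and 24 CpG dinucleotides, the Trim43a promoter a single GGATTA on the reverse strand and 1 CpG, and the Hesx1 promoter TATAAA on the reverse strand, a metal response core and 4 CpG. Of the 20 named risers 16 had a promoter in the table, with TATAAA in 4 and GGATTA in 2, counting a gene if any of its promoters held the motif. The shares that follow are per promoter, a different measure. In all 32851 promoters of the table TATAAA was in 13.6%, GGATTA in 7.06% and a metal response core in 25.7%, and the shares were 7.96, 7.26 and 34.2% for KO-risen and 7.64, 5.73 and 34.7% for KO-cleared genes of 10 CPM or more. The set of all promoters was not limited by level. Its median number of CpG was 7, against 20 in each class, so it is not a like background for the classes.

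Of 35 tested genes of the minor wave of genome activation, 32 rose and 2 fell in KO, with a median log2 change of 6.62, and 33 rose and 1 fell in WT, with a median of 7.27. In KO 91.4% were higher and 5.71% lower, beside 33.5 and 20.1% of all genes. The count of 2 falls became 1 without KO L2C replicate 3 or without KO PN3 replicate 1 or 3. It was also 1 with total count scaling and with the KO libraries alone. The summed level of the list ran from 893 to 2241 CPM in KO L2C and from 734 to 1088 CPM in KO PN3, where 12 of the 37 listed genes in the table had no count. AF067061 had 132, 133 and 78.5 CPM in KO L2C and none in KO PN3, at least 2401-fold higher. Tmem92 had 70.003, 66.9 and 60.2 CPM in KO L2C and 0.974, 0.505 and 0.476 CPM in KO PN3 (log2 change 6.62, edgeR adjusted p = 1.71e-07), and Usp17lc, a deubiquitinase of a multicopy family, had 78.6, 86.8 and 61.6 CPM in KO L2C and 2.43, 2.47 and 3.19 CPM in KO PN3 (log2 change 4.81). The 2 that fell were Zfp750 and Sp110, named after their values were seen, with changes of -3.25 and -0.77. Zscan4d, the 2-cell gene also named so, had 74.2, 74.4 and 20.6 CPM in KO L2C and 0.527, 0.112 and 5.62 CPM in KO PN3 (edgeR adjusted p = 0.00123), with KO L2C replicate 3 well below the other libraries of its group.

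Of 37 transcription factors linked to the major wave, 17 rose and 10 fell in KO (45.9 and 27.0%, beside 33.5 and 20.1% of all genes), and 19 rose and 9 fell in WT (51.4 and 24.3%, beside 36.2 and 25.4%). Obox6, a homeobox factor of the 2-cell embryo, had 376, 388 and 111 CPM in KO L2C and 0.203, 0 and 0.143 CPM in KO PN3 (edgeR adjusted p = 4.86e-07). Gabpa, an ETS factor, had 78.3, 79.03 and 37.05 CPM in KO L2C and 0.162, 0.224 and 0.381 CPM in KO PN3 (log2 change 7.96), and Klf5, a zinc finger factor, had 43.2, 35.6 and 68.5 CPM in KO L2C and 0.527, 1.07 and 0.1904 CPM in KO PN3 (log2 change 6.39). These factors were at or below 1.07 CPM in each KO zygote library and present in every KO 2-cell library. Nr5a2, a nuclear receptor, moved less in KO, with 40.3, 43.9 and 39.9 CPM in KO L2C and 28.3, 30.2 and 27.8 CPM in KO PN3, against 90.2, 89.2 and 86.4 CPM in WT L2C and 24.4, 25.01 and 25.3 CPM in WT PN3. The interaction for Nr5a2 was -1.31 (edgeR adjusted p = 0.0137) and was called in 17 of 23 alternatives, being lost with no filter on low counts and without any of KO L2C or WT L2C replicates 1 and 2. Of 30 genes of early lineages and the cell surface, 14 rose and 6 fell in KO (46.7% higher, beside 33.5% of all genes, and a share lower near the 20.1% of all genes), and 11 rose and 7 fell in WT. Without KO L2C replicate 3 the risers in KO were 9. Krt18 and Krt8 encode paired keratins of simple epithelium. Krt18 had 43.1, 43.96 and 33.6 CPM in KO L2C and 0, 0.112 and 0.0952 CPM in KO PN3, with 12.3, 12.3 and 9.403 CPM in WT L2C. Krt8 had 11.8, 12.6 and 22.4 CPM in KO L2C and 0.446, 0.224 and 0.333 CPM in KO PN3, against 2.31, 2.54 and 2.17 CPM in WT L2C and 1.31, 1.48 and 0.962 CPM in WT PN3. Both keratins were higher in every KO 2-cell library than in any WT 2-cell library, and the interaction was 4.60 for Krt8 (edgeR adjusted p = 0.00312) and 0.82 for Krt18 (edgeR adjusted p = 0.857). Fgf4, a growth factor of the inner cell mass, had 9.59, 11.6 and 20.9 CPM in KO L2C and no count in KO PN3, at least 303-fold higher.

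Ribosomal protein genes, whose products build the ribosome, rose in KO. Of 82 ribosomal protein genes 76 rose and 1 fell in KO with a median of 2.27, and 78 rose and 1 fell in WT with a median of 3.498. In KO 92.7% were higher and 1.22% lower, beside 33.5 and 20.1% of all genes. Their summed level ran from 12600 to 15450 CPM in KO L2C and from 3943 to 5553 CPM in KO PN3, against 28410 to 33210 CPM in WT L2C and 3875 to 5288 CPM in WT PN3. The KO and WT zygotes overlapped in that sum and the 2-cell embryos did not. The interaction was called negative for 31 of the 82 genes (37.8%), beside 3.09% of all genes. Rps3 had 141, 143 and 115 CPM in KO L2C and 8.72, 14.1 and 12.3 CPM in KO PN3, against 392, 392 and 320.3 CPM in WT L2C and 4.11, 2.91 and 5.55 CPM in WT PN3, an interaction of -2.95 (edgeR adjusted p = 0.00303). Rpl10a had 73.8, 72.5 and 54.1 CPM in KO L2C and 6.41, 4.49 and 6.95 CPM in KO PN3, against 321, 319 and 330.3 CPM in WT L2C and 7.203, 5.605 and 6.52 CPM in WT PN3 (interaction -2.16, edgeR adjusted p = 0.00381). Both genes rose in each genotype with no overlap, and each KO 2-cell library lay below each WT one. Ribosomal protein genes have many processed copies, so single genes are uncertain.

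Of 69 ribosome biogenesis genes 26 rose and 17 fell in KO (median 0.25), whereas 50 rose and 7 fell in WT (median 1.30). The KO shares of 37.7 and 24.6% were near those of all genes (33.5 and 20.1%), while 72.5% rose in WT, beside 36.2% of all genes. A negative interaction was called for 15 (21.7%, beside 3.09% of all genes). Nop16, a nucleolar protein, had 118, 124 and 64.1 CPM in KO L2C and a single count in KO PN3. Nhp2, a subunit of the H/ACA particle, had 156, 171 and 176 CPM in KO L2C and 10.1, 16.4 and 8.81 CPM in KO PN3 (log2 change 3.83, edgeR adjusted p = 3.23e-07). Polr1e, a subunit of RNA polymerase I, had 25.4, 31.9 and 17.5 CPM in KO L2C and 17.9, 13.3 and 15.9 CPM in KO PN3, against 155, 151 and 101 CPM in WT L2C and 14.04, 10.05 and 13.8 CPM in WT PN3. Nop16 and Nhp2 thus stood far apart between the KO stages, while Polr1e changed by 0.67 in KO (edgeR adjusted p = 0.0516) and by 3.42 in WT, an interaction of -2.75 (edgeR adjusted p = 0.00378). The helicase Ddx47 had an interaction of -1.98 (edgeR adjusted p = 0.00968), called in 19 of 23 alternatives and lost without KO L2C replicate 1 or 2 or WT L2C replicate 2, with a KO change of -0.10.

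Of 73 nuclear genes of oxidative phosphorylation 30 rose and 14 fell in KO (41.1 and 19.2%, near the shares of all genes), and 45 rose and 13 fell in WT. Their 6 negative interactions were 8.22%, beside 3.09% of all genes. Atp5g1, a subunit of ATP synthase, had 266, 272 and 273 CPM in KO L2C and 35.9, 53.3 and 43.03 CPM in KO PN3 (log2 change 2.62, edgeR adjusted p = 6.1e-07). Of 43 translation factors 12 rose and 14 fell in KO (27.9 and 32.6%, beside 33.5 and 20.1% of all genes), and 20 rose and 8 fell in WT. A negative interaction was called for 10 (23.3%, beside 3.09% of all genes). Risers outnumbered fallers in KO under 6 of the alternatives, DESeq2 and each other scaling among them, while without KO L2C replicate 2 the risers were 7. Of 48 proteasome genes 15 rose and 18 fell in KO (31.2 and 37.5%, beside 33.5 and 20.1% of all genes), and 21 rose and 15 fell in WT. The share that rose in KO was thus near that of all genes. A negative interaction was called for 11 (22.9%, beside 3.09% of all genes), and the KO balance turned with total count scaling. Psmb9 and Psmb10, which encode subunits of the immunoproteasome, and Psme1, a proteasome activator, had 14.9, 23.8 and 11.8 CPM on average in KO L2C and at most 0.19 CPM in any KO PN3 library. Of 43 core spliceosome genes 9 rose and 25 fell in KO (20.9 and 58.1%, beside 33.5 and 20.1% of all genes; median -1.49), and 15 rose and 20 fell in WT (median -0.55). A negative interaction was called for 9 (20.9%, beside 3.09% of all genes). Sf3a1, a subunit of the U2 particle, had 28.8, 31.03 and 25.4 CPM in KO L2C and 239, 192 and 278 CPM in KO PN3, a change of -3.06 (edgeR adjusted p = 2.72e-07).

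Of 43 DNA replication genes 6 rose and 24 fell in KO (14.0 and 55.8%, beside 33.5 and 20.1% of all genes), and 10 rose and 15 fell in WT. Without KO L2C replicate 1 or KO PN3 replicate 3 the risers in KO were 3. Mcm10, a replication initiation factor, had 20.8, 19.1 and 17.05 CPM in KO L2C and 186, 224 and 184 CPM in KO PN3, against 51.4, 48.4 and 47.6 CPM in WT L2C and 159.7, 172 and 149 CPM in WT PN3 (interaction -1.68, edgeR adjusted p = 0.00525). Ccne1, the cyclin of S-phase entry, rose in KO, with 179.8, 197 and 269 CPM in KO L2C and 6.98, 10.3 and 8.38 CPM in KO PN3 (log2 change 4.65, edgeR adjusted p = 2.38e-06). Of 30 genes of p53, apoptosis and DNA damage 16 rose and 7 fell in KO (53.3 and 23.3%, beside 33.5 and 20.1% of all genes), and 16 rose and 6 fell in WT. The share that fell in KO was thus near that of all genes. The fallers in KO were 4 without KO L2C replicate 1 or 2, with each other scaling, with DESeq2 and with the KO libraries alone. Cdkn1a, the p21 inhibitor of the cell cycle, had 54.9, 60.6 and 64.6 CPM in KO L2C and 4.14, 3.87 and 5.76 CPM in KO PN3, against 54.4, 64.1 and 37.97 CPM in WT L2C and 4.22, 2.06 and 3.19 CPM in WT PN3 (KO log2 change 3.71, edgeR adjusted p = 1.64e-06). The Cdkn1a levels of the genotypes overlapped at L2C. Of 13 mitochondrial mRNAs 11 rose and 2 were not called in KO (84.6% higher, beside 33.5% of all genes). Their summed level ran from 22520 to 34270 CPM in KO L2C and from 7923 to 12530 CPM in KO PN3.

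**Figure D3:**
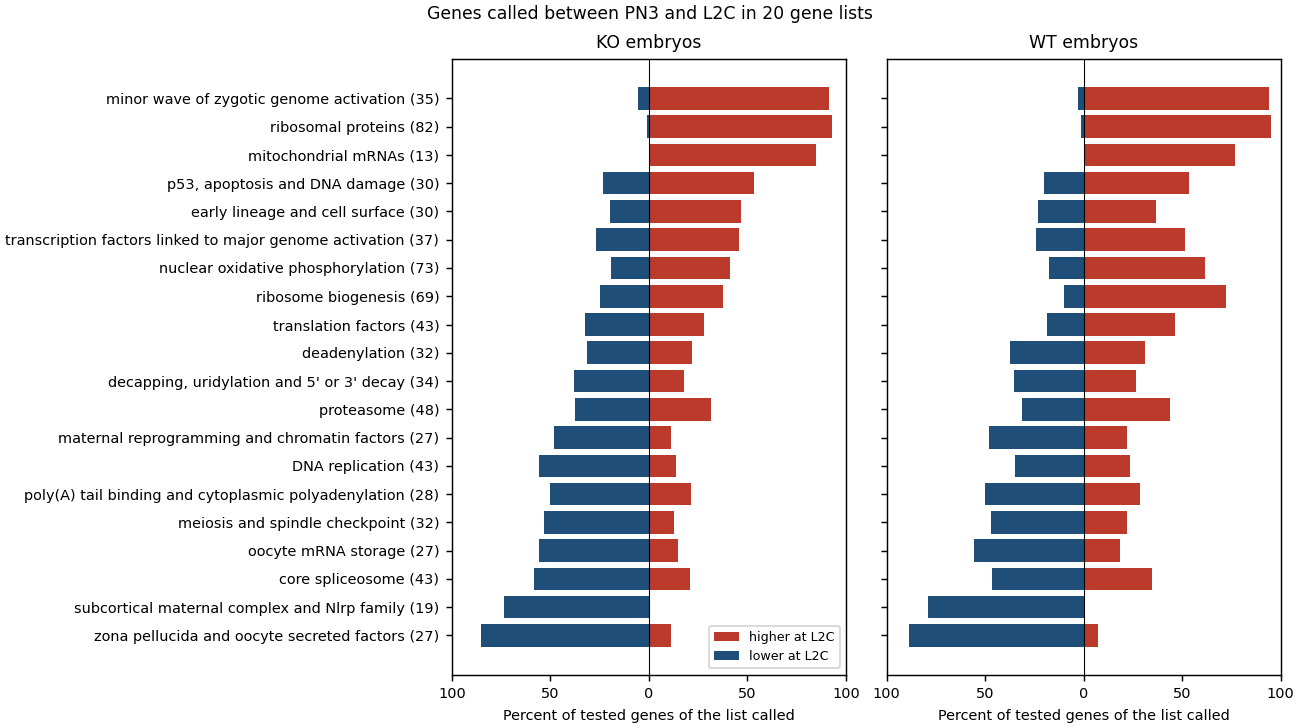
Percent of the tested genes of each of 20 lists (rows, with the number tested) that were called higher at L2C (right of 0, red) or lower (left of 0, blue) by edgeR, in KO (left panel) and WT embryos (right panel). The zona and secreted factors lie at the bottom, with 23 of 27 lower in KO, and the minor wave at the top, with 32 of 35 higher. Ribosome biogenesis has 26 of 69 higher in KO and 50 of 69 in WT. Of all genes tested, 33.5% were higher and 20.1% lower in KO, and 36.2% higher and 25.4% lower in WT.

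The second question was which of the RNAs that clear or rise in WT still do so without maternal Pan2. In WT 7668 genes were higher at L2C (36.2%) and 5372 lower (25.4%), 7385 (34.9%) and 4785 (22.6%) by 2-fold or more. Of the 4785 genes cleared in WT, 2855 (59.7%) also fell by 2-fold in KO, 287 fell by less, 1626 (34.0%) were not called and 17 rose. A gene that was not called is not one shown to stay: 1342 of these 1626 had a lower fitted level at L2C in KO. The interaction tested below was called positive for 302 of the 4785 (6.31%) and negative for 34 (0.711%). The other way round, 2855 of the 3632 KO-cleared genes (78.6%) were cleared in WT. Of the 7385 genes risen in WT, 5663 (76.7%) rose by 2-fold in KO, 151 rose by less, 1543 were not called and 28 fell, and these 5663 were 84.1% of the 6733 KO-risen genes. Of the 1543 not called, 1273 had a higher fitted level at L2C in KO. The interaction was called negative for 465 of the 7385 (6.3%) and positive for 25 (0.339%). The share of WT-cleared genes that fell in KO lay between 51.5 and 62.1% over the alternatives, and that of WT-risen genes that rose in KO between 67.7 and 80.1%.

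The size of the change was compared in the same classes. WT-cleared genes had a median log2 change of -1.46 in KO beside -2.12 in WT, and 79.3% of them changed more in WT. KO-cleared genes had medians of -1.937 in KO and -1.998 in WT, and 48.6% changed more in KO. WT-risen genes had medians of 3.76 in KO and 4.51 in WT, and KO-risen genes 4.65 in KO and 4.40 in WT. A class picked on one genotype favours that genotype's extreme values, so the pairs of medians are to be read together. Across all genes the KO and WT changes had a Pearson correlation of 0.84 and a Spearman correlation of 0.85, and 84.1% had the same sign, a description over 21160 genes of libraries that are not shared between the genotypes.

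**Figure D4:**
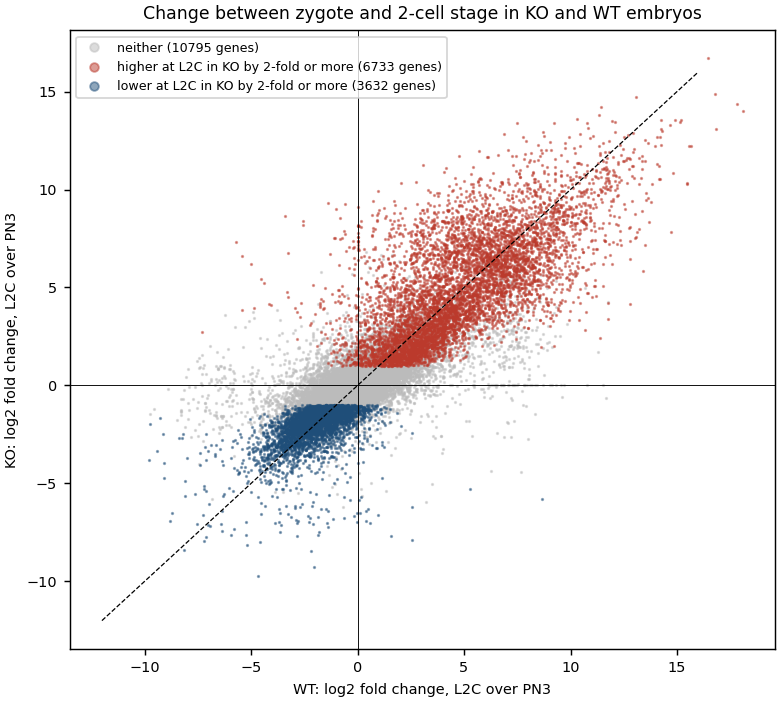
Log2 fold change of L2C over PN3 in KO (y) against that in WT (x) for 21160 genes, coloured by the KO call at 2-fold. The dashed line marks equal change; 84.1% of genes have the same sign, and 6733 genes are higher and 3632 lower at L2C in KO.

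The difference between the genotypes was tested as an interaction, the KO change minus the WT change. It was called positive for 392 genes (1.85%) and negative for 654 (3.09%), and 4499 genes had an unadjusted p under 0.05. With a replicate block nested in the stage the counts were 1718 and 2054. With upper-quartile scaling the balance turned to 695 positive and 443 negative. The calls depended on the close L2C pairs: with replicates 1 and 2 of each L2C group summed, edgeR called 0 genes at a lowest adjusted p of 0.0552, with 3049 at an unadjusted p under 0.05, while DESeq2 on the summed counts, a run added after seeing the data, called 371 positive and 875 negative. All 1046 genes kept their sign with an unadjusted p under 0.05 in that edgeR fit, and DESeq2 called 931 of them. Of the 56 interactions called and named by the rule, 37 were lost only with the pairs summed and 19 in a further alternative. Each interaction named here and above carries the limit of the summed pairs, including the list counts, which were 0 with the pairs summed. With the nested block the negative list counts were 66 for ribosomal proteins, 44 for ribosome biogenesis and 24 for the proteasome. They were 22 for the spliceosome, 21 for translation factors and 22 for oxidative phosphorylation. The same counts, in this order, were 9, 2, 4, 2, 1 and 2 without WT L2C replicate 1. With total count scaling they were 23, 6, 8, 3, 4 and 6.

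Some RNAs cleared in WT remained in KO 2-cell embryos. Grm4, a glutamate receptor, had 71.7, 77.95 and 65.6 CPM in KO L2C and 146, 143 and 160.0 CPM in KO PN3, against 14.4, 13 and 10.95 CPM in WT L2C and 145, 128 and 139 CPM in WT PN3. It fell by 1.06 in KO and by 3.42 in WT, an interaction of 2.36 (SE 0.26, edgeR adjusted p = 0.00186). Psenen, a subunit of gamma-secretase, had 276, 288 and 181 CPM in KO L2C and 393, 286 and 375 CPM in KO PN3, against 43.8, 33.03 and 19.4 CPM in WT L2C and 426, 368 and 443 CPM in WT PN3. Its interaction was 3.18 (SE 0.41, edgeR adjusted p = 0.00312), and 70.7% of the zygote level was left in KO beside 7.78% in WT. The KO change of Psenen was not called (edgeR adjusted p = 0.153). For both RNAs the zygotes of the genotypes overlapped, and the KO 2-cell libraries lay above every WT one. Gcc2, a golgin, had 23.9, 20.6 and 25.8 CPM in KO L2C and 39.6, 37.7 and 38.6 CPM in KO PN3, against 3.54, 3.79 and 5.17 CPM in WT L2C and 38.01, 40.7 and 42.9 CPM in WT PN3 (interaction 2.56, edgeR adjusted p = 0.00296). Samd10 had an interaction of 2.35 (edgeR adjusted p = 0.00245) with 81.1% left in KO and 15.9% in WT. Car9, a carbonic anhydrase, and Igfbp7, which binds insulin-like growth factors, had interactions of 2.59 and 3.91 (edgeR adjusted p = 0.00312 and 0.00369), and their KO zygotes were already below the WT zygotes, at 39.7 against 86.8 CPM and 4.67 against 17.7 CPM on average. By the list rule, Ttk, a spindle checkpoint kinase, had 159, 147 and 91.1 CPM in KO L2C and 122, 106 and 129 CPM in KO PN3, against 42.8, 51.4 and 34.3 CPM in WT L2C and 189, 169 and 191 CPM in WT PN3 (interaction 2.25, edgeR adjusted p = 0.00504). Nobox, an oocyte transcription factor, fell in both genotypes, with 50.8, 48.3 and 36.6 CPM in KO L2C and 10.9, 10.4 and 16.9 CPM in WT L2C (interaction 1.68, edgeR adjusted p = 0.012).

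Other RNAs rose less in KO. Elob, the elongin B subunit of transcription elongation and ubiquitin ligase complexes, had 88.7, 87.003 and 111 CPM in KO L2C and 4.34, 5.95 and 3.903 CPM in KO PN3, against 316, 309.6 and 291 CPM in WT L2C and 1.13, 2.17 and 1.14 CPM in WT PN3. It rose by 4.34 in KO and by 7.70 in WT (interaction -3.36, SE 0.38, edgeR adjusted p = 0.00186). Sertad1, a cell cycle regulator, had 50.4, 54.6 and 93.05 CPM in KO L2C and 2.03, 4.04 and 2.14 CPM in KO PN3, against 178, 189 and 137 CPM in WT L2C and 0.4002, 0.476 and 0.437 CPM in WT PN3 (interaction -3.97, edgeR adjusted p = 0.00291). Both RNAs were higher in KO than in WT zygotes and lower in KO than in WT 2-cell embryos, with no overlap. Abt1, a nucleolar regulator of basal transcription, and Uspl1, a SUMO peptidase, had the same order of groups, with interactions of -2.74 and -2.29 (edgeR adjusted p = 0.00186 and 0.00186). Taldo1, transaldolase of the pentose phosphate pathway, fell in KO, with 35.6, 36.6 and 32.99 CPM in KO L2C and 59.7, 54.7 and 72.3 CPM in KO PN3, and rose in WT, with 109, 113 and 91.1 CPM in WT L2C and 21.4, 16.5 and 19.9 CPM in WT PN3. Its interaction was -3.27 (SE 0.29, edgeR adjusted p = 0.000771), the lowest p of the set. Dhx8, a splicing helicase, changed by -0.42 in KO, which was not called (edgeR adjusted p = 0.0747), and by 2.20 in WT (interaction -2.62, edgeR adjusted p = 0.00161). Cdc5l, another splicing factor, had 31.7, 29.4 and 19.9 CPM in KO L2C and 29.7, 7.85 and 44.2 CPM in KO PN3, against 47.3, 49.1 and 46.3 CPM in WT L2C and 1.38, 0.212 and 0.262 CPM in WT PN3 (interaction -6.20, edgeR adjusted p = 0.00491), so the KO stages overlapped.

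Opposite calls in the genotypes were rare, 83 genes in all and 35 with a 2-fold change in both. Besides Pan2, the genes named for rising in KO and falling in WT were Crmp1, a cytosolic phosphoprotein of neurons, Tmem147, a membrane protein of the endoplasmic reticulum, and Nadsyn1, an NAD synthetase. Crmp1 had 9.48, 12.1 and 22.3 CPM in KO L2C and 2.92, 4.15 and 1.38 CPM in KO PN3, against 0.513, 0.463 and 1.39 CPM in WT L2C and 7.49, 6.504 and 2.93 CPM in WT PN3 (interaction 5.21, edgeR adjusted p = 0.00655). The stages overlapped in neither genotype. Tmem147 and Nadsyn1 had interactions of 2.42 and 2.54 (edgeR adjusted p = 0.0084 and 0.039). That of Nadsyn1 was called in 12 of 23 alternatives. It was lost with total count scaling, with the replicate block by number, and without any of KO L2C replicates 1 and 2, KO PN3 replicate 3, WT L2C replicates 1 to 3, or WT PN3 replicates 1 and 3. Of those that fell in KO and rose in WT, Rdh12, a retinol dehydrogenase, had 5.196, 5.12 and 4.86 CPM in KO L2C and 22.6, 12.4 and 28.99 CPM in KO PN3, against 54.7, 58.5 and 28.5 CPM in WT L2C and 14.7, 3.33 and 16.5 CPM in WT PN3 (interaction -4.11, edgeR adjusted p = 0.00978). Elf3, an ETS factor, had 18.2, 16.6 and 17.998 CPM in KO L2C and 38.2, 47.3 and 32.3 CPM in KO PN3, against 42.1, 41.4 and 38.4 CPM in WT L2C and 13.1, 16.6 and 19.3 CPM in WT PN3 (interaction -2.47, edgeR adjusted p = 0.00312). In both genes the KO L2C libraries lay below all KO PN3 libraries and the WT L2C libraries above all WT PN3 libraries. Smpd3, a neutral sphingomyelinase, Spata21 and Fam3a had interactions of -3.27, -3.14 and -2.73, the last called in 21 of 23 alternatives and lost without WT L2C replicate 2.

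**Figure D5:**
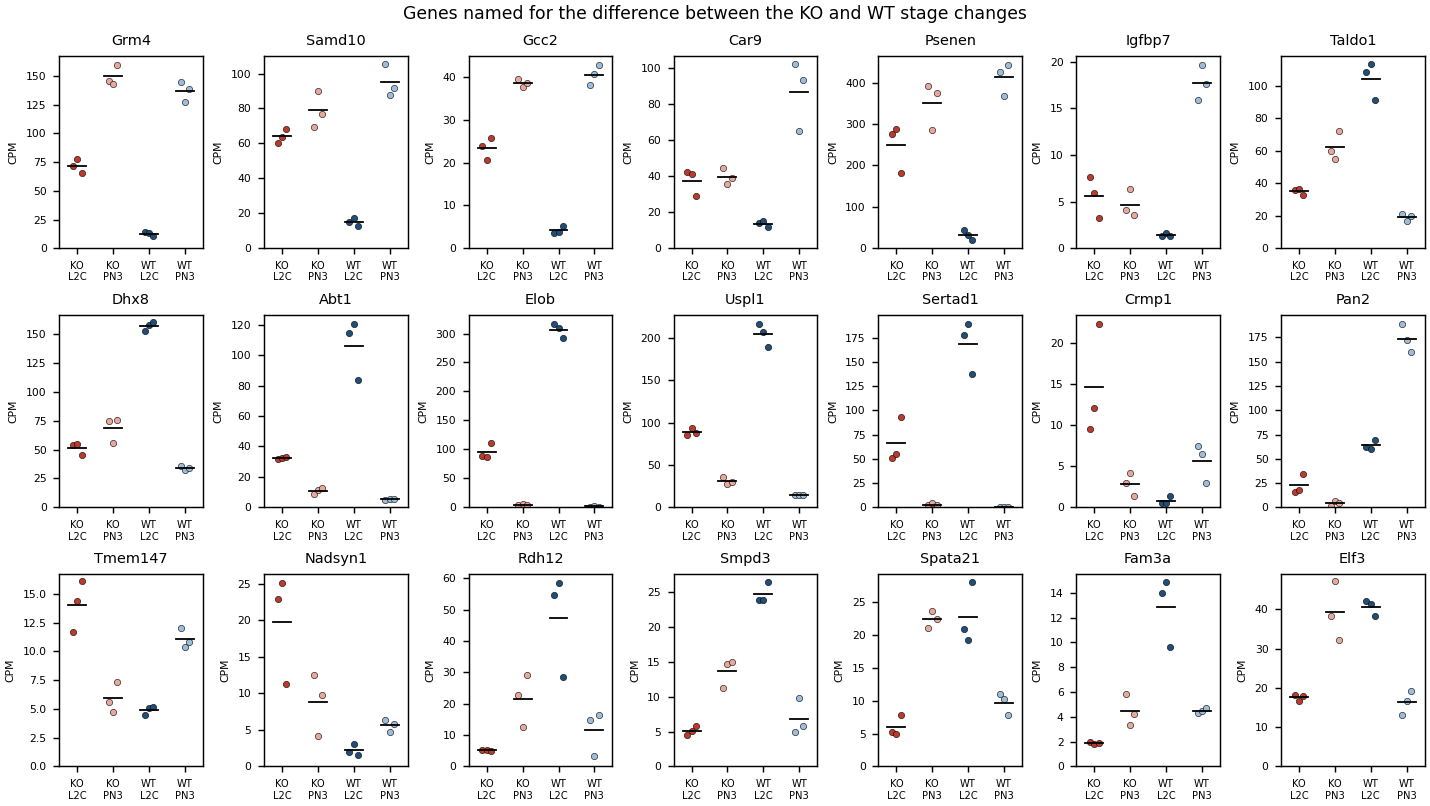
CPM (y, linear from 0, own scale in each panel) of each library for 21 genes named for the difference between the KO and WT stage changes, in the order KO L2C, KO PN3, WT L2C and WT PN3. Points are libraries and bars group means; Grm4 keeps 65.6 to 77.95 CPM in KO L2C against 10.95 to 14.4 CPM in WT L2C, and Elob reaches 87.003 to 111 CPM in KO L2C against 291 to 316 CPM in WT L2C.

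Of 12 tested granulosa or cumulus markers 5 rose, 1 fell and 6 were not called in KO (41.7% higher and 8.33% lower, beside 33.5 and 20.1% of all genes). Their summed levels were 53.6 to 83.6 CPM in KO L2C and 38.1 to 54.4 CPM in KO PN3. Of 8 sperm markers 4 rose, 2 fell and 2 were not called, with sums of 104.8 to 151 CPM in KO L2C and 93.95 to 115 CPM in KO PN3. The sums of both lists overlapped between the stages, and the falls of sperm markers were 1 without any of the KO libraries, WT L2C replicate 2 or WT PN3 replicate 3. Of 9 markers of oviduct, stroma or blood 3 rose (33.3%, near the share of all genes) and 6 were not called, with sums of 169.6 to 207 CPM in KO L2C and 24.4 to 75.3 CPM in KO PN3. Most of the last sum at L2C was Epcam, with 82.3, 82.5 and 84.3 CPM in KO L2C and 1.298, 1.96 and 1.29 CPM in KO PN3, and Hba-a1, with 45.5, 51.7 and 63.97 CPM in KO L2C and 0, 0.112 and 0 CPM in KO PN3. The granulosa marker Amhr2 had 14.7, 15.5 and 26.8 CPM in KO L2C and no count in KO PN3, whereas Cyp19a1 had 2.23, 2.64 and 0.852 CPM in KO L2C and 35.4, 27.1 and 42.6 CPM in KO PN3. The collagen marker Col1a1 had 0.114, 0.323 and 9.27 CPM in KO L2C and 0.0811, 15.3 and 0.1904 CPM in KO PN3, so it was highest in the rRNA-rich library of each stage. The part of these cells in the results above was not tested.

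The classes also differed in the kind of gene. Protein-coding genes were 88.0% of KO-cleared and 66.9% of KO-risen genes, beside 73.1% of all tested. Pseudogenes were 3.08, 11.3 and 8.67% of these sets, and long noncoding RNAs 7.16, 18.0 and 14.8%. The median summed exon length in the table was 4381 bases for KO-cleared genes, 2581 for KO-risen genes and 3267 for all genes tested.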

How the data were processed

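Polyadenylated RNA of mouse embryos was amplified by Smart-seq2 and sequenced as 151-base read pairs, per the labels' protocols. Per the submitters' processing notes reads were handled with featureCounts 2.0.2, STAR 2.7.10a, DESeq2 and Trim Galore 0.6.7, in no stated order, and the build was mm10. The authors deposited raw counts per gene for 12 libraries, and how reads that fit several genes were counted is not stated there. From these counts, 21160 of 55291 genes passed filterByExpr, and 34131 were left out. edgeR 4.0.16 (R 4.3.3) was fitted with TMM scaling, 4 group means and the robust quasi-likelihood test, with Benjamini-Hochberg adjustment over all genes tested and a threshold of 0.05. The contrasts were L2C minus PN3 in KO, the same in WT, and their difference (interaction).

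Genes were named by rule: Pan2; in each direction the 10 of highest level and the 10 of largest fold (at 20 CPM or more) among called genes of 4-fold or more without overlap; 6 genes cleared in WT with a positive interaction and 6 risen in WT with a negative one; up to 5 a direction with opposite changes; and per list up to 4 by the KO test and 2 by the interaction. The members, lists and tests were chosen with earlier results of these data known. Same-numbered KO and WT libraries of a stage deviated together (correlations 0.192, 0.477 and 0.266 at PN3 and 0.133, 0.150 and 0.224 at L2C). Replicates 1 and 3 at PN3 (0.193 and 0.207) and replicates 1 and 2 at L2C (0.14 and 0.135) did so across numbers as well. The remaining pairs of unlike number, each with the rRNA-rich library of the stage, lay between -0.366 and -0.164. A pairing by number was thus not established. The replicate block nested in the stage is given beside the interaction counts as an alternative only. Motifs were searched in GENCODE M21 transcripts (mm10) and RefSeq promoters (GRCm38.p6). DESeq2 1.42.0 and other settings served as alternatives.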

Additional observations from a re-analysis of the deposited data

Results flagged for a closer look

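The stage change differed between the genotypes by the interaction test, KO minus WT, for 392 genes in the positive and 654 in the negative direction (edgeR, adjusted p under 0.05). With the close L2C pairs summed edgeR called 0 of them, at 3049 genes with an unadjusted p under 0.05, and DESeq2 on the summed counts, added after seeing the data, called 371 and 875.

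Among genes cleared in WT, the log2 interaction was 2.36 for Grm4, 2.35 for Samd10, 2.56 for Gcc2, 2.59 for Car9, 3.18 for Psenen and 3.91 for Igfbp7. Among genes risen in WT it was -3.27 for Taldo1, -2.62 for Dhx8, -2.74 for Abt1, -3.36 for Elob, -2.29 for Uspl1 and -3.97 for Sertad1. For genes that rose in KO and fell in WT it was 5.21 for Crmp1, 3.86 for Pan2, 2.42 for Tmem147 and 2.54 for Nadsyn1. For genes that fell in KO and rose in WT it was -4.11 for Rdh12, -3.27 for Smpd3, -3.14 for Spata21, -2.73 for Fam3a and -2.47 for Elf3.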

How the results depend on the processing

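Of 131 named KO stage calls, 129 kept their call in every alternative that gave a value, and mt-Rnr1 and mt-Rnr2 lost it in some. Apart from Pan2, these genes were chosen by a large change or the lowest adjusted p in this same contrast. Keeping the call was therefore likely from the start, and the count does not speak for other genes. The Pan2 rise kept its call throughout. Total count scaling gave 2827 genes lower in KO, 1853 WT-cleared genes that fell in KO, and 237 positive and 382 negative interactions. Upper-quartile scaling gave 695 positive interactions and DESeq2 989 and 1752. The fit of KO libraries alone with the close pairs summed, an alternative chosen after seeing the data, gave 2711 genes lower. Summed pairs in the fit of all groups gave 0 and 0 interactions, and leaving out the rRNA-rich libraries gave 3336 and 2721. That last fit kept only the close replicates 1 and 2 of each L2C group, so its spread there may be technical. In it the KO change of Rn7sk was 0.62 (edgeR adjusted p = 0.0048), beside an uncalled -0.15 with all libraries. The cause was not tested. Same-numbered KO libraries of the 2 stages did not pair (correlations 0.172, -0.259 and -0.248), and the replicate block by number gave 6684 and 3975 KO stage calls and 205 positive interactions, while the replicate block nested in the stage gave 1718 and 2054.

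Leaving out 1 library gave 6207 to 7568 genes higher and 3587 to 4375 lower in KO, 2613 to 2957 WT-cleared genes that fell and 5123 to 5632 WT-risen genes that rose in KO, and a Pan2 rise of 1.97 to 2.91. Interactions ranged from 90 to 570 positive and from 169 to 713 negative, and fell by over 1.5 times without any of KO L2C or WT L2C replicates 1 and 2, or KO PN3 or WT PN3 replicates 1 and 3, and for negative ones also without WT L2C replicate 3, at 402. With 3 libraries a group, changes near the floor of 0.109 to 0.171 CPM are not detectable.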
